A study of Mus musculus with 2 samples.

Results

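Il2ra-positive CD8 T cells were described here, chosen by their Il2ra count: at least 2 UMIs of Il2ra in the cell. A UMI, or unique molecular identifier, is a random tag added before amplification, so that all copies of a transcript molecule count once. Il2ra-positive cells numbered 1865 of 27258 cells kept after filtering, 667 of 13641 in the library labelled NC and 1198 of 13617 in the library labelled HC. Cells were kept with 500 or more detected genes and 1000 or more UMIs, no more than 10% of them mitochondrial. Both libraries were droplet-based 3' single-cell RNA libraries of murine CD8+ T cells from lymph node, in a study of such cells with or without electrical stimulation from the matrix. The labels spell out neither NC nor HC, do not say which library was stimulated, and give no strain, age, agent or time for either. With 1 library per group there was no replicate and no test. Each 95% interval below is a counting error only, and no difference between NC and HC can be told apart from a difference between 2 preparations.

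Il2ra encodes CD25, the alpha chain of the interleukin-2 (IL-2) receptor. Alone it binds IL-2 weakly and does not signal, but joined to the beta chain (Il2rb) and the common gamma chain (Il2rg) it forms the high-affinity receptor. The beta and gamma chains signal through the kinases JAK1 and JAK3 to the transcription factor STAT5. In CD8 T cells Il2ra is induced by antigen receptor signalling and by IL-2 itself, and cells that keep it high are known to lean towards the effector rather than the memory state.

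The label was checked against T cell and other markers. Of the Il2ra-positive cells, 99.0% had a Cd8a or Cd8b1 UMI and no Cd4 UMI. Cd8b1 was found in 96.9% of those in NC and 96.2% of those in HC, and Cd3e, a chain of the T cell receptor complex, in 96.9% and 93.4%. Cd4, Foxp3 (the factor of regulatory T cells), Ncr1 (natural killer cells), C1qa (macrophages) and Siglech (plasmacytoid dendritic cells) had 0 UMIs in the Il2ra-positive cells of both libraries. Other markers were present. The B cell marker Cd79b was found in 12.3% of those in NC and 12.5% of those in HC, and the myeloid marker Itgax in 2.55% and 1.59%. At least 2 UMIs of a B cell or myeloid marker were found in 15 of the 667 NC cells and 29 of the 1198 HC cells. Summed levels of the 5 B cell markers were 183 CPM (UMIs per 1000000 UMIs, here with Il2ra left out of the total) in NC and 12.1 in HC, beside 13.2 and 13.0 in Il2ra-zero cells of like depth. Those of the 7 myeloid markers were 27.6 and 1.68 CPM. Those of the gamma-delta T cell markers were 110 and 91.9 CPM, beside 115 and 98.3 in Il2ra-zero cells. Those of the stroma and endothelium markers were 27.6 and 29.4 CPM, beside 37.1 and 36.6. A single NC cell held 1558 of the 1618 Igkc UMIs and a single NC cell held all 224 Lyz2 UMIs. No doublet caller was run and no doublets were removed.

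A larger share of HC than of NC cells was Il2ra-positive. The share was 4.89% in NC (4.53 to 5.26%, exact binomial interval) and 8.80% in HC (8.33 to 9.29%), a ratio of 1.80. Over all kept cells the level of Il2ra was 29.7 CPM for NC and 49.5 CPM for HC. A count of 2 UMIs is reached more readily in a deeply sequenced cell, and the share was larger in deeper cells of both libraries. In the shallowest of 5 equal depth classes it was 0.597% in NC and 1.64% in HC, and in the deepest class 14.0% and 24.4%. HC was the higher in each of the 5 depth classes, and in none of them did the intervals overlap. With every cell thinned to 5000 UMIs the shares were 1.73% and 3.74%, for which 3516 NC cells and 2920 HC cells were too shallow. Thinned to 2000 UMIs, leaving out 133 and 94 cells, they were 0.326% and 0.739%.

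**Figure D1:**
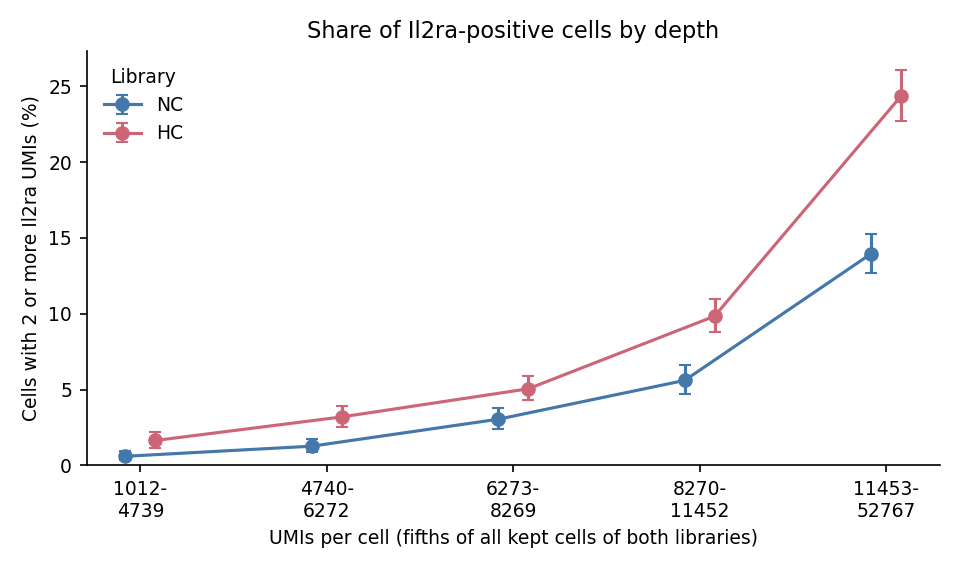
Percent of kept cells with 2 or more Il2ra UMIs (vertical axis) in 5 classes of total UMIs per cell (horizontal axis, each class holding 1 in 5 of all kept cells), with exact 95% binomial intervals, for NC and HC. The share climbs from 0.597% to 14.0% in NC and from 1.64% to 24.4% in HC, and the HC point lies above the NC point in each class.

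The cut of 2 UMIs fell inside a continuous distribution. In NC, 11323 cells had 0 Il2ra UMIs, 1651 had 1, 414 had 2, 149 had 3, 65 had 4, 15 had 5 and 24 had 6 or more. In HC the counts were 10081, 2338, 728, 264, 113, 39 and 54 cells. Just inside the cut, cells with 2 UMIs had a median of 12173.5 total UMIs in NC and 10579 in HC, and just outside it, cells with 1 UMI had 8965 and 8767.5. Il2ra-positive cells held 52.0% of all Il2ra UMIs in NC and 58.7% in HC. Most carried few copies: the mean was 2.68 UMIs per cell in NC and 2.77 in HC, and the highest were 13 and 19. In the cells chosen for it, Il2ra reached 183 CPM in NC and 214 in HC.

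Cells with no Il2ra UMI may still express the gene, and cells with a few UMIs may hold free RNA. No cell type sure to lack Il2ra was large enough to measure that background. Of the 12 NC cells with at least 2 UMIs of the B cell marker Cd79a (median 13508.5 UMIs), 3 were Il2ra-positive (5.49 to 57.2% of them), and B cells can express Il2ra themselves. HC had 1 such cell. The part of free RNA in the shares was not tested. Of cell barcodes, 49 kept ones occurred in both libraries, none of them Il2ra-positive in both.

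To see what else marked these cells, each was paired within its library with the Il2ra-zero cell nearest in total UMIs. The pairing held the median depth at 13151 UMIs on both sides in NC, and at 11840.5 against 11839.5 in HC. Over all Il2ra-zero cells the medians were 6468 and 6829 UMIs. The deepest HC cells had no equally deep partner, so the HC sums were 15492751 UMIs in Il2ra-positive and 14976541 in Il2ra-zero cells. Genes with at least 20 CPM on either side were counted, and a ratio of at least 1.5-fold marked a gene as higher or lower.

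Il2ra-positive cells carried more transcripts of some killing genes (Gzmb, Prf1), chemokines (Ccl4, Ccl5) and the TNF receptors Tnfrsf9 and Tnfrsf4 than Il2ra-zero cells of like depth, and fewer of Tcf7 and Dapl1. Genes of ribosome assembly leaned higher as a list. In NC, 123 of 5232 genes (2.35%) were higher and 23 (0.44%) lower. In HC, 36 of 5099 genes (0.706%) were higher and 9 (0.177%) lower. In both libraries 26 of 4924 genes (0.528%) were higher, 6 (0.122%) were lower and 0 were called in opposite directions. The median log2 ratio over all genes was 0.04 in NC and 0.02 in HC. Of the 26, 15 remained when partners were also matched on the share of UMIs from cycling genes. Lost there were the growth and ribosome genes Ccdc86, Gpatch4, Nop2, Srm, Usp36 and Wdr43, with Chchd4, Cxcr6, Pdcd1, Tnfrsf4 and Xcl1. Of the 26, 20 remained without cells holding B cell or myeloid markers, a setting added after the data were seen.

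**Figure D2:**
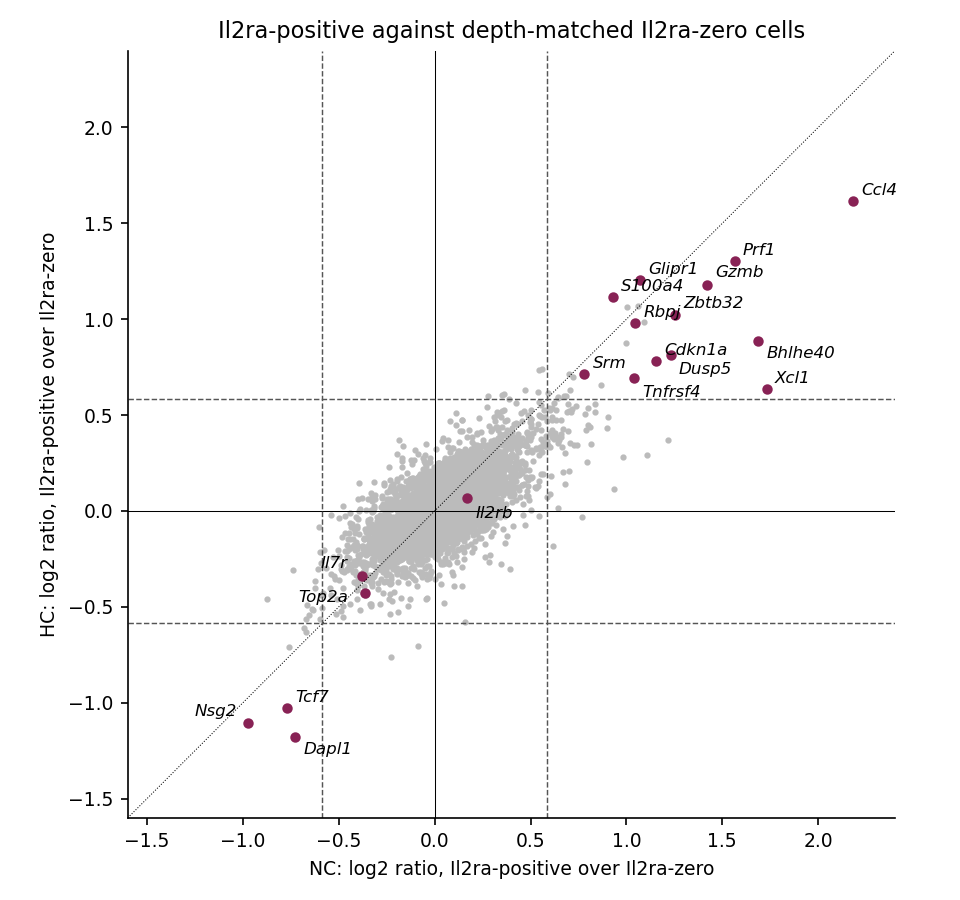
Log2 ratio of CPM in Il2ra-positive over depth-matched Il2ra-zero cells in NC (horizontal) and HC (vertical) for the 4924 genes counted in both. Dashed lines mark 1.5-fold, the dotted line equal ratios, and named genes are dark; Ccl4, Prf1 and Gzmb lie at the upper right, Tcf7, Dapl1 and Nsg2 at the lower left, and Il2rb near the centre.

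The receptor's own partners differed little. Il2rb stood at 356 CPM in Il2ra-positive and 317 CPM in Il2ra-zero cells of NC, and at 389 and 370 CPM in HC. Its log2 ratios were 0.17 (0.10 to 0.24) and 0.07 (0.02 to 0.12). Il2rg stood at 165 and 166 CPM in NC, and at 109 and 123 CPM in HC. Neither chain was near 1.5-fold in either library. Among the other receptors that use the gamma chain, Il7r (the IL-7 receptor, a survival receptor of naive and memory cells) was lower in Il2ra-positive cells of both libraries. Its levels were 149 against 194 CPM in NC and 171 against 216 in HC, log2 ratios of -0.38 and -0.34. Il21r was at 41.1 against 28.1 CPM in NC and 31.6 against 32.3 in HC. The ligand gene Il2 was rare, with 59 UMIs against 20 in NC and 44 against 42 in HC. Jak1, Jak3, Stat5a and Stat5b were all under 1.5-fold in both libraries.

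Of 15 genes of the IL-2 and STAT5 response, 9 reached the floor of 20 CPM in each library. In NC 3 were higher (Pim1, Myc and Dusp5), in HC 2 (Pim1 and Dusp5), and none was lower, with median log2 ratios of 0.18 and 0.17. Pim1, a kinase that supports growth and survival, stood at 88.1 against 48.3 CPM in NC and 137 against 86.8 in HC. That is 1.82-fold (1.63 to 2.04) and 1.57-fold (1.47 to 1.69). Dusp5, a phosphatase that restrains ERK, was 2.35-fold higher in NC (1.97 to 2.80) and 1.75-fold in HC (1.55 to 1.99). Myc, which encodes a transcription factor, was 1.87-fold higher in NC (1.64 to 2.13) and 1.35-fold in HC (1.21 to 1.51). The feedback inhibitors Cish and Socs2 lay under the floor. Cish gave 61 UMIs against 15 in NC and 97 against 40 in HC, log2 ratios of 2.02 (1.19 to 2.94) and 1.23 (0.68 to 1.80). Socs2 gave 46 against 16 and 163 against 55, a log2 ratio of 1.52 in both. The survival genes Bcl2 and Mcl1 were under 1.5-fold in both libraries, and Pim2, a kinase related to Pim1, was at log2 ratios of -0.24 and -0.22.

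Transcripts of granzyme B and perforin were higher in Il2ra-positive cells of both libraries. Gzmb, the protease granzyme B, stood at 577 against 215 CPM in NC and 783 against 346 CPM in HC. It was 2.68-fold higher in NC (2.55 to 2.82) and 2.26-fold in HC (2.19 to 2.34). Prf1, the pore-former perforin, stood at 32.5 against 11.0 CPM and 20.1 against 8.15 CPM, 2.96-fold and 2.46-fold. Serpinb9, an inhibitor that shields the killer cell from its own granzyme B, was 2.16-fold higher in NC and 1.23-fold in HC. Over the list of 17 killing genes, 4 of 9 counted were higher in NC (with Serpinb6b) and 3 of 10 in HC (with Gzma), and none was lower. The medians were 0.14 and 0.15. Prf1 passed the floor through the Il2ra-positive cells alone, as did Gzma in HC. Over the 8 genes with a mean of at least 20 CPM in the 4 cell sets (Il2ra-positive and Il2ra-zero of each library), the medians were -0.04 and -0.05. The granule proteins Nkg7, Ctsw and Lamp1 and the receptors Klrk1 and Klrd1 were under 1.5-fold in both libraries, and all but Nkg7 had negative log2 ratios. After thinning to 5000 UMIs, Gzmb was found in 71.1% of 643 Il2ra-positive and 42.3% of 643 Il2ra-zero cells of NC. In HC it was found in 84.6% and 59.9% of 1146 cells each. In the NC cells with Cd79a, thinned alike, 1 of 10 had a Gzmb UMI and 7 of 10 a Tcf7 UMI. The source of these UMIs was not tested, and these cells were not used as a background.

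Chemokine transcripts were higher in both libraries. Of the list of chemokines and cytokines, Ccl3, Ccl4, Ccl5, Xcl1 and Ltb had a mean of at least 20 CPM over the 4 cell sets, and their median log2 ratio was 1.73 in NC and 1.06 in HC. Ccl3 had 2.03 (1.83 to 2.23) in NC and 2.27 (1.82 to 2.75) in HC, where it lay under the floor, and Ltb was below 0 in both. Ccl4, which attracts T cells and myeloid cells, stood at 348 against 76.6 CPM in NC and 41.9 against 13.7 CPM in HC, 4.54-fold (4.19 to 4.92) and 3.06-fold (2.61 to 3.60). Ccl5 stood at 250 against 125 CPM and 171 against 82.1 CPM, 2.01-fold and 2.09-fold. Xcl1, the attractant of cross-presenting dendritic cells, stood at 865 against 260 CPM in NC and 61.1 against 39.3 CPM in HC, 3.32-fold and 1.55-fold. The interferon-gamma gene Ifng was at 37.3 against 4.41 CPM in NC (8.45-fold, 6.15 to 11.9) and at 5.36 against 1.07 CPM in HC, under the floor there. Ifng in NC and Ccl4 in HC passed the floor through the Il2ra-positive cells alone. A single Il2ra-positive NC cell held 83 of the 364 Ifng UMIs, and the 10% of these cells with most held 98.4%. Ccl4 and Ifng were found in a minority of Il2ra-positive cells: 68.5% in NC and 92.2% in HC had no Ccl4 UMI, and 89.1% and 96.2% had no Ifng UMI. Ccl5 was absent from 39.4% and 44.4%, and Xcl1 from 49.2% in NC and 89.7% in HC. The 10% of Il2ra-positive cells with most UMIs of a gene held 78.1% of the Xcl1 UMIs in NC and 99.7% in HC, 88.9% and 100% of the Ccl4 UMIs, and 67.7% and 61.0% of the Ccl5 UMIs. The 100% for Ccl4 in HC was fixed, since 92.2% of cells there had none. For Gzmb the 10% with most of its own UMIs held 48.2% and 38.0%. No Gzmb UMI was found in 18.0% of Il2ra-positive cells in NC and 8.26% in HC.

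Of 11 counted activation genes 2 were higher in both libraries, both TNF receptors. Tnfrsf9 (4-1BB), induced on activated T cells, stood at 146 against 69.8 CPM in NC and 92.8 against 44.2 CPM in HC, 2.09-fold and 2.10-fold. Tnfrsf4 (OX40) was 2.06-fold higher in NC (1.83 to 2.31) and 1.62-fold in HC (1.48 to 1.77). Pdcd1, which encodes the inhibitory receptor PD-1, was 1.56-fold (1.36 to 1.80) and 1.51-fold (1.33 to 1.72) higher, at the very edge of the threshold. Tnfrsf4 did not reach 1.5-fold in both libraries when partners were also matched on cycling share, nor after thinning to 2000 UMIs. The activation list had medians of 0.18 and 0.07. Ctla4 was at 111 against 110 CPM in NC and 179 against 156 CPM in HC, and Lag3 at 77.9 against 87.6 and 89.5 against 92.4.

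Among genes induced early by antigen receptor signalling, 9 had a mean of at least 20 CPM over the 4 cell sets, and their median log2 ratio was 0.49 in NC and 0.14 in HC. All 9 lay above 0 in NC and 7 in HC, beside 2915 and 2799 of all 4989 such genes. Nr4a2, a nuclear receptor of that response, stood at 60.8 against 17.4 CPM in NC and 17.1 against 11.7 in HC, log2 ratios of 1.80 (1.55 to 2.05) and 0.55 (0.27 to 0.83). Egr3, a zinc finger factor, had 1.06 and 0.31. Jun stood at 35.3 against 33.7 CPM in NC and 35.8 against 41.0 in HC. The difference between the libraries in these ratios was not tested. Nfkb1, Rela and Nfkb2 were under 1.5-fold in both libraries, and Rel, a further NF-kappa B subunit, had log2 ratios of 0.77 (0.58 to 0.96) in NC and -0.03 (-0.20 to 0.14) in HC.

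The other genes higher in both libraries included transcription factors and calcium-binding proteins. Bhlhe40, which supports cytokine production in T cells, stood at 49.6 against 15.4 CPM in NC and 56.4 against 30.5 CPM in HC, 3.22-fold and 1.85-fold. Zbtb32 was 2.39-fold and 2.03-fold higher, and Rbpj, the DNA-binding partner of Notch, 2.07-fold and 1.97-fold. S100a6 stood at 539 against 270 CPM and 746 against 406 CPM, and S100a4 at 151 against 79.4 and 223 against 103. The cell cycle inhibitor Cdkn1a was 2.23-fold (1.80 to 2.76) and 1.72-fold (1.47 to 2.02) higher. Cdkn1a passed the floor through the Il2ra-positive cells alone in both libraries, as did Bhlhe40 and Dusp5 in NC. Cxcr6, a chemokine receptor of tissue-homing effector cells, stood at 71.4 against 47.3 CPM and 67.2 against 43.9 CPM. The rest of the 26 were Glipr1, Gm13546, Chchd4, Usp36, Srm, Gpatch4, Nop2, Wdr43 and Ccdc86.

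Ribosome assembly stood higher across its list. All 18 counted genes of ribosome biogenesis had ratios above 0 in both libraries, with medians of 0.51 in NC and 0.37 in HC. Over all genes, 3103 of 5232 lay above 0 in NC and 2848 of 5099 in HC. At 1.5-fold, 8 were higher in NC and 1 in HC (Wdr43, a factor of small-subunit assembly, at log2 ratios of 0.72 and 0.70). Wdr43 and Srm were among the genes lost from those higher in both libraries when partners were also matched on cycling share. Srm, which makes the polyamine spermidine, stood at 138 against 80.3 CPM in NC and 70.2 against 42.8 CPM in HC. Glycolysis genes leaned the same way without reaching 1.5-fold: 0 of 15 in NC and 0 of 17 in HC, with medians of 0.17 and 0.23.

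Naive and memory genes were lower. Of 15 counted, 13 lay below 0 in NC and 14 in HC, with medians of -0.32 and -0.19. Over all genes, 2129 of 5232 lay below 0 in NC and 2251 of 5099 in HC. At 1.5-fold 3 were lower in NC (Tcf7, Dapl1 and Klf3), 2 in HC (Tcf7 and Dapl1) and none was higher. Tcf7, the factor that maintains naive and memory T cells, stood at 130 against 223 CPM in NC and 104 against 213 CPM in HC, 1.71-fold (1.59 to 1.83) and 2.04-fold (1.92 to 2.17) lower. Dapl1, a transcript of less differentiated T cells, stood at 232 against 385 CPM and 163 against 369 CPM, 1.66-fold and 2.26-fold lower. Ccr7, the lymph node homing receptor, had log2 ratios of -0.48 and -0.55, and Klf2 of -0.46 and -0.26. Beside Tcf7 and Dapl1, the genes lower in both libraries were Aff3, Cdkn2c, Neil3 and Nsg2.

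Mitosis genes were also lower than in the depth-matched cells. Of 20, 20 lay below 0 in NC and 19 in HC, with medians of -0.25 and -0.19 and none at 1.5-fold. The counts over all genes were 2129 of 5232 and 2251 of 5099. Top2a stood at 546 against 701 CPM in NC and 702 against 945 CPM in HC. The median share of UMIs from the cycling genes was 0.563% in Il2ra-positive and 0.619% in matched Il2ra-zero cells of NC, and 0.653% and 0.770% in HC. Against all Il2ra-zero cells, at 0.348% and 0.521%, it was higher. Matching on depth therefore turned the direction, and the cycling share still differed between the sides of each ratio above. Its part was not tested beyond the match on that share.

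Levels were graded with Il2ra. Cells with exactly 1 Il2ra UMI were matched to the Il2ra-positive cells by depth, closely in NC. In HC too few deep ones existed: the upper quartile was 14324 UMIs, against 15735 in Il2ra-positive cells. Gzmb stood at 215, 353 and 577 CPM with 0, 1 and at least 2 Il2ra UMIs in NC, and at 346, 476 and 783 CPM in HC. Tcf7 ran the other way, at 223, 174 and 130 CPM and at 213, 166 and 104 CPM. The 26 genes higher in both libraries were chosen by their first and last classes, so only the middle class was free to vary. It lay between those classes in both libraries for all 26, except for Xcl1 in HC at 39.3, 34.5 and 61.1 CPM. Against the cells with 1 Il2ra UMI, 17 of 5211 genes (0.326%) were 1.5-fold higher in NC and 13 of 5068 (0.257%) in HC. None was lower in NC and 4 (0.0789%) in HC.

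**Figure D3:**
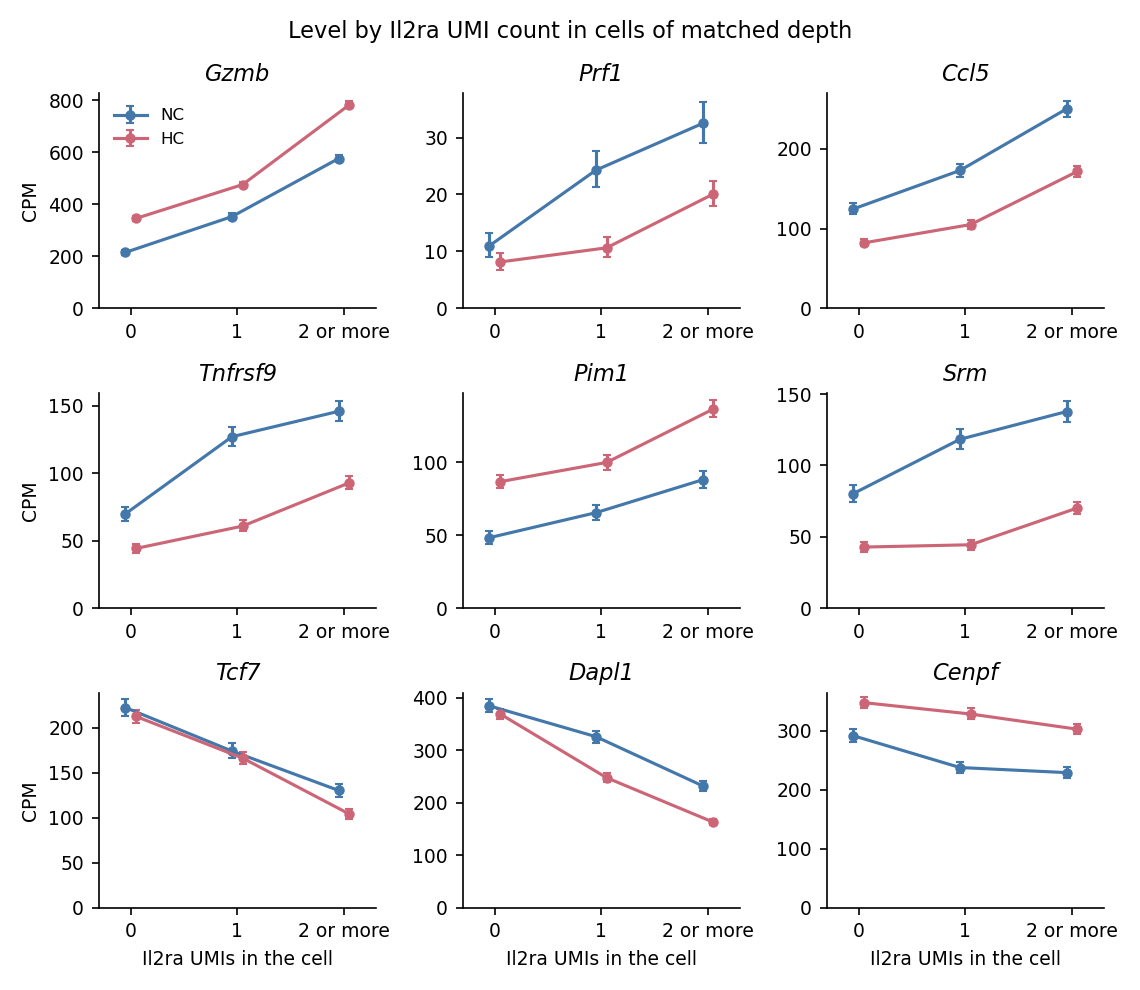
CPM of 9 genes (vertical axes, each from 0) in depth-matched cells with 0, 1 and 2 or more Il2ra UMIs (horizontal axes) in NC and HC, with exact 95% Poisson intervals. Gzmb climbs from 215 to 577 CPM in NC and from 346 to 783 in HC, Tcf7 descends from 223 to 130 and from 213 to 104, and Cenpf, a mitosis gene, descends less.

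Within the Il2ra-positive cells, some of these genes were graded with the number of Il2ra UMIs and others were not, and depth varied with that number. Cells with 2, 3 and at least 4 had medians of 12173.5, 14605 and 17548 total UMIs in NC and 10579, 12602 and 15056.5 in HC. Gzmb stood at 674, 813 and 1025 CPM in HC, and at 525, 479 and 842 CPM in NC, where the middle class was the lowest. Tcf7 stood at 120, 94.0 and 77.1 CPM in HC and at 147, 126 and 88.5 in NC. Cdkn1a stood at 22.2, 29.2 and 41.8 CPM in HC and at 18.7, 28.2 and 62.6 in NC. Xcl1 in NC ran the other way, at 924, 822 and 750 CPM, and in HC stood at 60.6, 37.0 and 87.4. S100a4 in HC was lowest in the last class, at 232, 252 and 173 CPM, and Egr3 in HC stood at 22.2, 12.3 and 11.4. Of the cycling markers, Mki67 stood at 534, 540 and 533 CPM in HC and at 422, 423 and 449 in NC. Top2a stood at 726, 689 and 656 CPM in HC and at 535, 558 and 561 in NC. The genes given here were chosen after their values were seen.

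The start-site windows of the genes higher in both libraries, grouped by that call alone, were searched for 3 motifs. Windows of 250 bases before to 50 after each start came from RefSeq (GRCm38.p6) and matched 20 of the 26 genes. Each motif reads the same on both strands. The sequence TTCNNNGAA, the form bound by STAT factors, was in the windows of 3 genes, Gzmb, Tnfrsf9 and Chchd4. That is 12% of these genes' 25 windows, beside 8.30% of all 32851 windows. TGANTCA, bound by AP-1, was in those of 2 genes, Gzmb and Tnfrsf9, or 8% of the 25 windows beside 7.81% of all. CACGTG, bound by MYC among others, was in those of 6 genes (Ccdc86, Nop2, Pim1, S100a6, Tnfrsf4 and Wdr43), or 24% of the 25 windows beside 7.15% of all. These shares were not tested. The Il2ra window held none of them. Windows around the matches in Gzmb, Tnfrsf9, Nop2 and Pim1 are shown because these genes carry the groups described above, with Cish for the IL-2 response. Each is given 5′ to 3′ on the gene's strand with the motif in capitals. The Cish window also holds a further TTCNNNGAA match, left in lower case at its end. A match of letters is no evidence of binding.
Gzmb, TTCNNNGAA, chr14:56262285-56262314, minus strand: gcagtagggcaggagttTTCATAGAAagca
Gzmb, TGANTCA, chr14:56262374-56262403, minus strand: tggtggttctcTGAGTCAttcgctgtgggt
Tnfrsf9, TTCNNNGAA, chr4:150927853-150927882, plus strand: caacagctgaTTCCAAGAAacccttcagag
Tnfrsf9, TGANTCA, chr4:150927973-150928002, plus strand: ccctgctcagtTGAGTCAcaggtcctgtgt
Cish, TTCNNNGAA, chr9:107296649-107296678, plus strand: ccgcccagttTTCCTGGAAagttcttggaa
Nop2, CACGTG, chr6:125131811-125131840, plus strand: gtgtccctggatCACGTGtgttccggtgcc
Pim1, CACGTG, chr17:29493015-29493044, plus strand: gtaaacaggaatCACGTGgtctgaaaccag

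Il2ra lies on chromosome 2 at 11642807 to 11693193 on the plus strand (GENCODE vM21, GRCm38), and its neighbours were read for a shared pattern. Il15ra, the related alpha chain of the IL-15 receptor, starts 12.1 kb beyond its end. It stood at 8.50 against 7.08 CPM in NC and 6.52 against 4.01 CPM in HC, under the floor, log2 ratios of 0.26 (-0.21 to 0.75) and 0.70 (0.23 to 1.19). Pfkfb3, an activator of glycolysis 88.7 kb away, stood at 7.17 against 3.59 CPM and 7.88 against 6.41 CPM. Rbm17, a splicing factor, stood at 98.6 against 78.6 CPM in NC and 82.8 against 76.5 CPM in HC. Prkcq, the T cell kinase PKC-theta, stood at 77.4 against 75.8 and 85.1 against 84.9. None of the neighbours within 500 kb that reached the floor was at 1.5-fold.

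HC was then compared with NC inside the Il2ra-positive cells. Of 5283 genes, 93 (1.76%) passed 1.5-fold towards HC and 187 (3.54%) towards NC, with a median log2 ratio of -0.06 over all genes. With TMM scaling the split was 120 higher and 142 lower in HC, and with median-of-ratios scaling 107 and 162. In the matched Il2ra-zero cells, 78 of 5143 genes (1.52%) were higher and 86 (1.67%) lower, with a median of -0.04. Both comparisons rest on the same 2 libraries but on different cells.

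**Figure D4:**
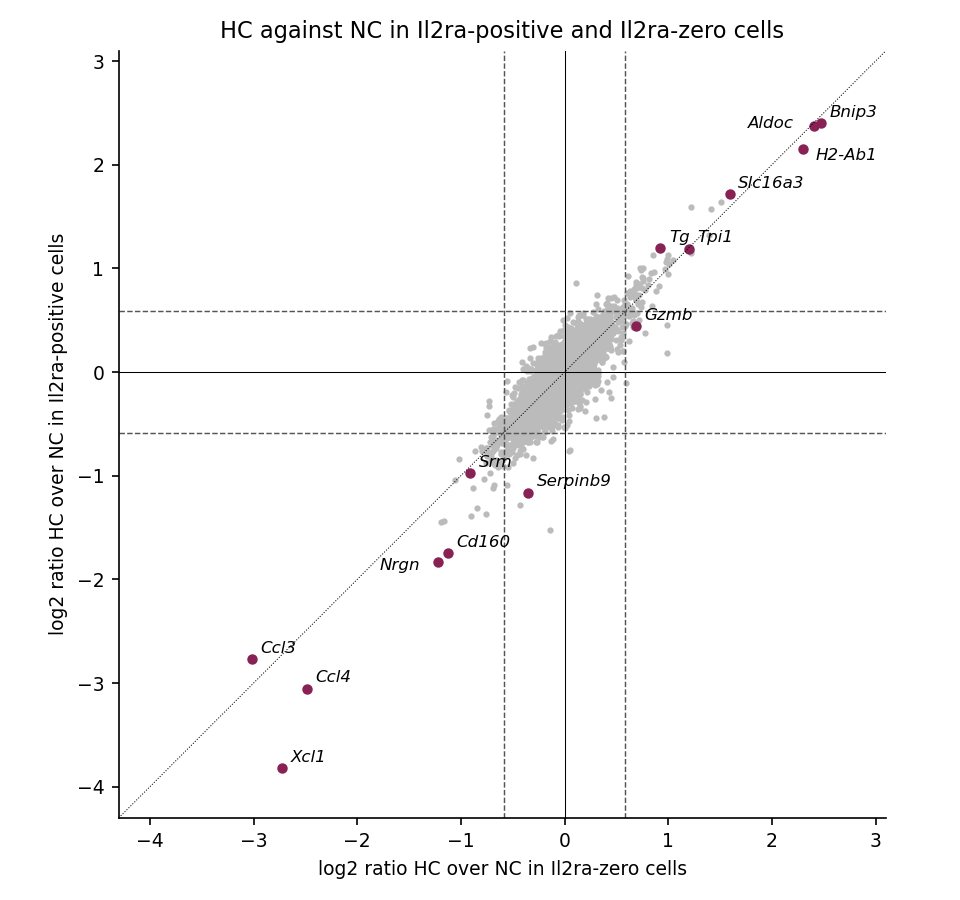
Log2 ratio of CPM in HC over NC in depth-matched Il2ra-zero cells (horizontal) and in Il2ra-positive cells (vertical) for the 5019 genes counted in both. Dashed lines mark 1.5-fold and the dotted line equal ratios; Bnip3 and Aldoc lie at the upper right, Xcl1, Ccl4 and Ccl3 at the lower left, and Serpinb9 lies below the dotted line.

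Genes of glycolysis and of the hypoxia response stood higher in HC. Of 17 glycolysis genes 16 were higher, with a median log2 ratio of 0.85, and in the Il2ra-zero cells 11 of 17, with a median of 0.72. Aldoa stood at 448 CPM in NC and 995 in HC, Tpi1 at 328 and 749, and the lactate exporter Slc16a3 at 24.2 and 79.5. Slc16a1, another lactate transporter, was the exception at 33.3 and 22.4 CPM. Of 14 hypoxia genes 10 were higher, with a median of 0.88, and in Il2ra-zero cells 11. Bnip3, a mitophagy receptor induced by low oxygen, stood at 11.3 and 59.6 CPM, 5.29-fold higher in HC (4.33 to 6.50). In the Il2ra-zero cells Bnip3 was 5.56-fold higher (4.43 to 7.06). Ndrg1 and Ankrd37 had log2 ratios of 1.59 and 1.57. The glycolytic Aldoc and the class II gene H2-Ab1 were at 5.19-fold and 4.44-fold, and at 5.30-fold and 4.92-fold in Il2ra-zero cells. Not all class II-linked genes lay higher in HC. In Il2ra-positive cells the class II-linked Cd74 had a log2 ratio of -2.86 (-3.38 to -1.53 over the alternative settings). H2-Aa, itself one of the myeloid markers, gave 24 UMIs in the 667 NC cells and 1 in the 1198 HC cells. The 24 lay in 7 cells, with 10 of them in 1 cell. Cd74 in Il2ra-positive over Il2ra-zero cells of NC was at 0.66. That ratio changed sign without cells holding B cell or myeloid markers.

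Chemokine and cytokine genes stood lower in HC. Xcl1 was 14.2-fold lower in Il2ra-positive cells (13.2 to 15.2) and 6.62-fold in Il2ra-zero cells (6.05 to 7.25). Ccl4 was 8.30-fold lower (7.63 to 9.04) and 5.59-fold, and Ccl3 6.83-fold and 8.10-fold. Ifng was 6.96-fold lower (5.47 to 8.94) and passed the floor through the NC cells alone. Over the 5 genes of that list with a mean of at least 20 CPM the median log2 ratio was -2.77, and -2.48 in Il2ra-zero cells, while Ccl5 and Ltb were at -0.54 and -0.18 on the log2 scale. Crtam, an adhesion receptor of cytokine-making T cells, stood at 52.0 CPM in NC and 7.94 in HC, 6.55-fold lower, and at 16.8 and 7.34 in Il2ra-zero cells.

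The early antigen receptor response had 9 genes with a mean of at least 20 CPM. In HC over NC 7 of them lay below 0, with a median of -0.44, beside 2929 of all 4989 such genes. In Il2ra-zero cells 6 lay below 0, with a median of -0.16, beside 2939 of the 4989. Nr4a2 was 3.55-fold lower (3.07 to 4.12) and in Il2ra-zero cells 1.49-fold (1.20 to 1.85), under the floor there. Nr4a1, not one of those 9, stood at 25.8 and 9.68 CPM, and at 9.14 and 7.34. Egr3 stood at 36.7 and 17.6 CPM, and at 17.6 and 14.2. In Il2ra-positive cells Nr4a1, Nr4a2 and Egr3 passed the floor through the NC cells alone. Rel, an NF-kappa B subunit, stood at 60.9 and 36.0 CPM, and at 35.7 and 36.8. The difference between the Il2ra-positive and Il2ra-zero ratios was not tested. Nr4a2 had no UMI in 69.7% of Il2ra-positive cells in NC and 87.2% in HC, Egr3 in 81.0% and 91.2%, and Nr4a1 in 86.1% and 92.5%.

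Ribosome assembly was lower in HC as well, with a median of -0.63 over 18 genes, and -0.53 over the same genes in Il2ra-zero cells. All 18 lay below 0 in both, beside 2929 and 2939 of 4989 genes. Rrp9 stood at 49.1 CPM in NC and 24.9 in HC. Of the polyamine genes, Srm stood at 138 and 70.2 CPM and Odc1 at 194 and 105. For the receptor itself, Il2rg was 1.51-fold lower in HC (1.41 to 1.62), at the edge of the threshold, and Il2rb was 1.09-fold higher (1.05 to 1.14). In the IL-2 response list 1 of 9 genes was higher, Pim1 at 1.55-fold (1.43 to 1.68), and 0 were lower. Cish was at 6.25 and 6.26 CPM, and Socs2 at 4.71 and 10.5.

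Killing genes leaned lower in HC, except for Gzmb and Gzma. Of 10 counted, 1 was higher, 2 were lower and 8 lay below 0, with a median log2 ratio of -0.23. Over all 5283 genes, 3139 lay below 0. In Il2ra-zero cells 6 of 8 lay below 0, with a median of -0.16. Gzmb stood 1.36-fold higher in HC (1.32 to 1.40) and Gzma, a further granzyme, 1.26 on the log2 scale (0.99 to 1.54), at 14.2 and 34.2 CPM. Gzma passed the floor through the HC cells alone. Prf1 stood at 32.5 CPM in NC and 20.1 in HC, and Serpinb9 was 2.24-fold lower (1.95 to 2.58). Of the checkpoint genes, Ctla4 was 1.61-fold higher and Cd160 3.36-fold lower (3.07 to 3.68). Among naive and memory genes Klf2 and Klf3 were 1.53-fold and 1.78-fold higher and Id3 1.87-fold lower. Tcf7 stood at 130 and 104 CPM. Cd8a, a chain of CD8, was 1.58-fold lower (1.51 to 1.66), while Cd8b1, the other chain, stood at 452 and 440 CPM.

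**Figure D5:**
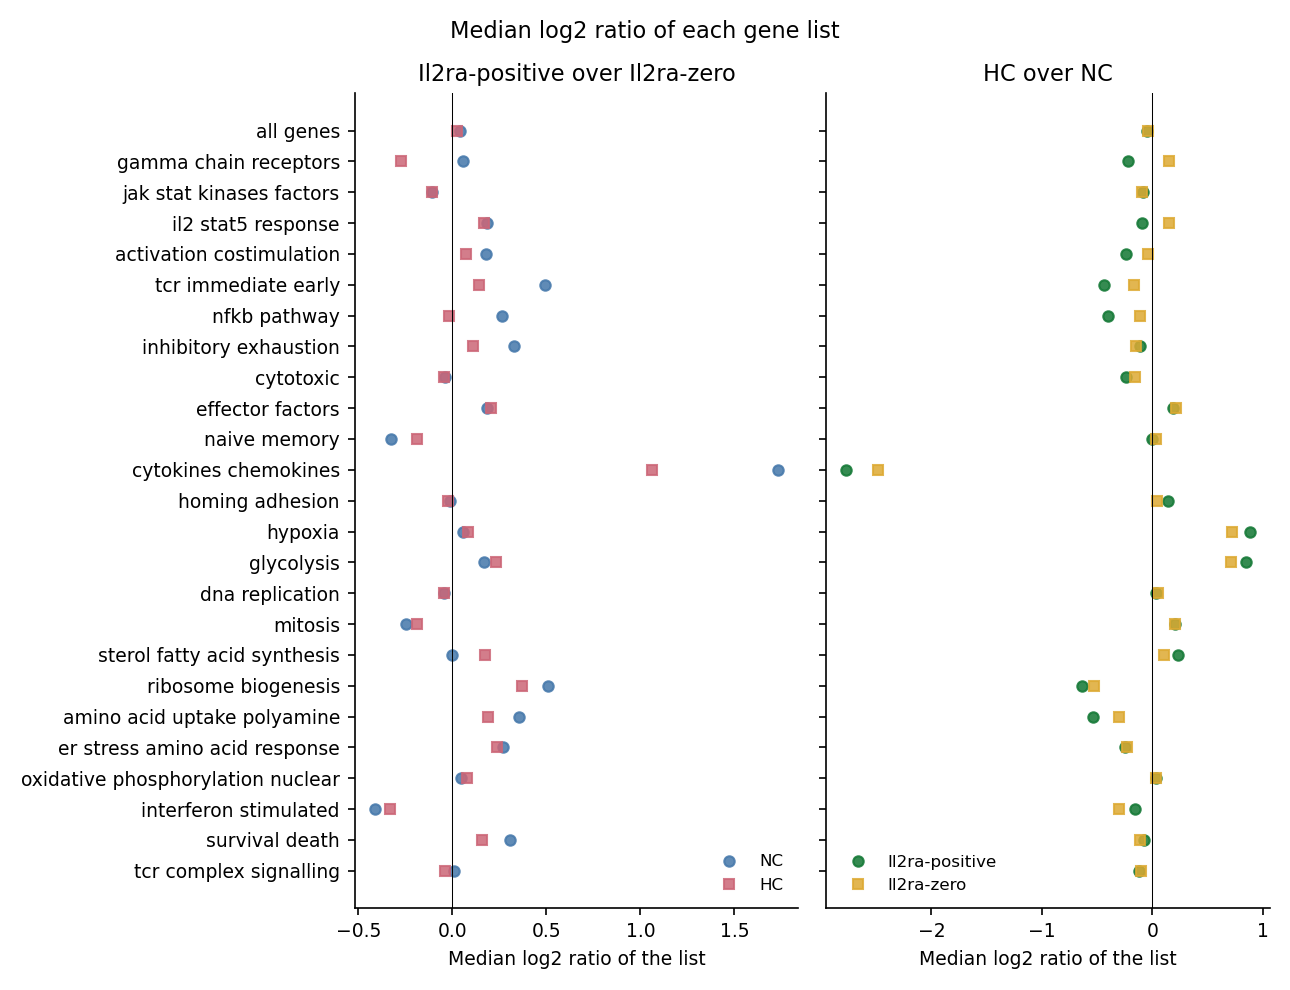
Median log2 ratio of each list (vertical axis), over the list's genes with a mean of at least 20 CPM in the 4 cell sets, so that all 4 medians cover the same genes, and over all 4989 such genes. Left, Il2ra-positive over depth-matched Il2ra-zero cells in NC and HC; right, HC over NC in Il2ra-positive and in Il2ra-zero cells. Cytokines and chemokines lie highest on the left and lowest on the right, and hypoxia and glycolysis highest on the right at 0.88 and 0.85.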

How the data were processed

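The deposited matrices hold counts of UMIs per gene and barcode, not normalized, made with Cell Ranger 6.1.2 per the file headers. Per the submitters' processing notes, the build was mm10 and the tools were Seurat 3.2.3 and Cell Ranger 5.0.0. NC held 14798 barcodes and 117408492 UMIs, HC 15495 and 116897716. After filtering (at least 500 genes and 1000 UMIs, at most 10% mitochondrial), 115789139 and 114430972 UMIs remained, at medians of 6898 and 7425 per cell. Counts were summed over cells and divided by their total without Il2ra (CPM). CPM carry exact Poisson intervals, shares and ratios exact binomial ones, at 95%. No pseudocount was added, and against 0 the floor was 3 counts per side. Il2ra-zero partners were the nearest in total UMIs, without replacement, the deepest cell first. Genes with at least 20 CPM on either side were counted, so a gene could pass through the higher side alone. A symbol carried by several identifiers was read from the one with the most UMIs. The ratio and call steps were tested on simulated data.

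The cells, gene lists and settings were chosen with earlier results of these data known. Genes named are those of the IL-2 receptor, gamma-chain receptor and IL-2 response lists, up to 4 of every other list by size of ratio, the 12 highest and 12 lowest of each comparison, and neighbours within 500 kb, 190 in all. Those 12 leave out mitochondrial, ribosomal protein, predicted and receptor segment genes. Others are members of the counts beside them or of the fixed lists and were chosen after their values were seen. GENCODE vM21 matched 32158 of 32285 identifiers. For lists compared between settings, genes with a mean of at least 20 CPM over the 4 cell sets were used, a choice made after the data were seen. Alternatives covered scaling, weights, thinning, thresholds, filters and matching, with TMM factors from edgeR 4.0.16 and size factors from DESeq2 1.42.0 for scaling only. The tools were R 4.3.3, matplotlib 3.10.9, scipy 1.17.1, numpy 2.4.6, pandas 2.3.3 and Python 3.11.15.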

Additional observations from a re-analysis of the deposited data

Results flagged for a closer look

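Barcodes left out by the filter also held Il2ra, a signal in data that the comparisons did not use. Of 1157 left-out NC barcodes 4 had at least 2 Il2ra UMIs, a share of 0.346% (0.0943 to 0.883%), and of 1878 in HC 14 had, a share of 0.745% (0.408 to 1.25%). Most, 1096 and 1777, were over the mitochondrial limit, and their medians were 916 and 826 UMIs. Summed over them Il2ra gave 47 and 135 UMIs. The level was no higher than the 29.7 CPM of kept cells in NC, and 54.7 CPM in HC, beside 49.5 in kept cells.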

How the results depend on the processing

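No paired analysis was possible because each group is 1 library. The ratio of the Il2ra-positive share, HC over NC, lay between 1.53 and 2.27 under every alternative tried. The shares were 0.326% in NC and 0.739% in HC at 2000 UMIs (ratio 2.27), 1.73% and 3.74% at 5000 UMIs (2.16), 17.0% and 26.0% with 1 or more Il2ra UMIs (1.53), and 1.85% and 3.45% with 3 or more. Without cells above 3 times the median depth they were 4.09% and 8.24% (2.02), and HC was at 9.94% with at most 5% mitochondrial UMIs.

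Counts of genes past the threshold moved with the setting, and the cause was not tested. The numbers higher and lower in HC than NC within Il2ra-positive cells were 287 and 367 at a floor of 5 CPM, 49 and 91 at 50 CPM, 22 and 33 at 2-fold, and 260 and 411 after thinning to 2000 UMIs. For Il2ra-positive over Il2ra-zero cells in NC they were 308 and 118, 57 and 10, 27 and 0, and 406 and 206 at the same 4 settings. In HC they were 133 and 44, 18 and 4, 10 and 3, and 140 and 100, and in both libraries 69 and 17, 14 and 2, 7 and 0, and 43 and 15. With 1 or more Il2ra UMIs the pairs were 55 and 3 in NC, 18 and 5 in HC, and 13 and 1 in both. With 3 or more they were 195 and 78 in NC, 68 and 26 in HC, and 40 higher in both. Against all Il2ra-zero cells, which are shallower, they were 392 and 133, 178 and 65, and 158 and 52. With 3 Il2ra-zero cells per Il2ra-positive cell they were 62 and 15 in HC and 48 and 10 in both. The number lower in NC was 40 with cells weighted equally, 36 with at most 5% mitochondrial UMIs and 47 without cells above 3 times the median depth. Matching also on the cycling share left 15 genes higher in both.

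With the floor set on the mean of the 4 cell sets, added after seeing the data so that every comparison covers the same genes, 25 of the 26 genes higher in both libraries remained (Prf1 was lost), and 81 and 146 genes were higher and lower in HC than NC. Of the 26, 21 remained with TMM and 21 with median-of-ratios scaling; Chchd4, Cxcr6, Gpatch4, Pdcd1 and Usp36 were lost under each. Without cells holding B cell or myeloid markers, 20 of the 26 and all 6 lower genes remained, and Cxcr6, Gpatch4, Pdcd1, Prf1, Usp36 and Xcl1 were lost.

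Of the values of named genes under the alternatives, 7746 stayed within their counting interval, 1122 moved beyond it and 6, each at 1.5-fold or more in the main setting, reversed. For Il2ra-positive over Il2ra-zero cells in NC, Il9r, nearly undetected, turned to 0.97 with 1 or more Il2ra UMIs and 0.0099 against all Il2ra-zero cells. Igkc turned to -1.27 and Cd74 to -0.77 with 3 or more, and Cd74 to -0.19 without B cell or myeloid marker cells. Osm in HC turned to -0.17 after thinning to 2000 UMIs. Only ratios of at least 1.5-fold in the main setting could be counted as reversed, and some smaller ones also changed sign. Cenpf in Il2ra-positive over Il2ra-zero cells of NC, at -0.35, rose to as high as 0.15. Bhlhe40 in HC over NC, at 0.18, fell to as low as -0.25. Depth limits the genes under 20 CPM, among them Il15ra, Il9r, Il2, Cish and Socs2.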
